A study of Mus musculus with 40 samples.

Results

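Replication-type histone genes are the clustered genes that encode the core histones H2A, H2B, H3 and H4 and the linker histone H1. Members were taken as every gene whose symbol begins with Hist1h, Hist2h, Hist3h or Hist4h, which gave 62 of the 20295 genes measured in interscapular brown adipose tissue (BAT). The family as a whole was defined by these names alone, but it was selected on the counts of Hist1h4h and Hist1h2be, whose treatment effects had depended on diet in these same libraries. The levels of both are therefore given as a description, without a test. RNA was sequenced from 40 male mice kept at 29 °C, with 5 mice in each of 8 groups. Replicates were separate mice.

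C-3BO mice carried a Gpr3 transgene, placed in the Rosa26 locus behind the CAG promoter, that was switched on by Ucp1-Cre in brown and beige adipocytes from early life. GPR3 is a receptor that signals through Gs to raise cAMP without an added ligand. Control littermates had the transgene without Cre or Cre without the transgene, and both genotypes were 13 to 19 weeks old. In a separate cohort, mice 15 weeks old received CL-316,243 (CL), an agonist of the β3-adrenergic receptor, at 1 mg/kg once a day for 9 days, or saline at 10 μL/g. In both cohorts mice ate chow or, for the last 7 days, a high fat diet (HFD) with 60% of its energy as fat. The injections had begun 2 days before the change of diet, and by the study's methods tissue was taken on the day after the last CL injection. The injected mice carry the label Wildtype, and in the study's methods they are controls from the I-3BO line, in which a tamoxifen-inducible Ucp1-Cre drives the same transgene, so they too had either the transgene or Cre alone.

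Most replication-dependent histone mRNAs are made in S phase, when new DNA has to be packed into nucleosomes, and are degraded when replication stops. Instead of a poly(A) tail they end in a short stem-loop, which the stem-loop binding protein SLBP recognizes and the U7 small nuclear ribonucleoprotein helps to cleave. Some genes of the family also make polyadenylated mRNAs, by reading past the stem-loop or by splicing around it, and such forms are known from differentiated cells that no longer divide. The libraries were made from RNA captured on oligo-dT beads, a step meant to keep RNA with a tail. How fully it removed stem-loop-ended mRNA could not be checked here, and the forms were not counted apart.

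The stem-loops are shown because they mark where the replication-type mRNA ends in genes that were nevertheless counted in poly(A) libraries. Each line gives 26 bases of the mm9 genome in the direction of transcription. Capitals mark the 6 bases of each stem arm, and the 4 bases between the arms are the loop.

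Hist1h4h, chr13:23623322-23623347, + strand: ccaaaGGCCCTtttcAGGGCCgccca
Hist1h2be, chr13:23677395-23677420, - strand: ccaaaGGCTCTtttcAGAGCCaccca
Hist1h1c, chr13:23831376-23831401, + strand: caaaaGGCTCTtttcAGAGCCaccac
Hist1h2bc, chr13:23776511-23776536, + strand: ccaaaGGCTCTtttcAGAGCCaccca
Hist1h4i, chr13:22132830-22132855, - strand: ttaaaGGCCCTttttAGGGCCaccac
Hist1h4c, chr13:23789953-23789978, - strand: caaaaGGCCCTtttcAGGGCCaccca

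A perfect 6-base stem that began with GG, with a 4-base loop, was looked for within 100 bases after the stop codon. It was found in 57 of the 59 members whose annotated stop codon lay inside the counted row, and in 68 of 21729 other protein-coding genes, or 0.313%. The stop codon and the stem were 21 to 58 bases apart, with a median of 30. There were 8 forms of the stem-loop. The commonest, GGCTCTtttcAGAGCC, was in 34 members, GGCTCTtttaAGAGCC was in 9, and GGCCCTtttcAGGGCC, the form in Hist1h4h, was in 7. Among the members with enough counts to be tested, the search found the stem-loop in 10 of 11, and not in Hist2h2be. A stem with a mismatch, or one farther from the stop codon, would have been missed.

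The file counted most members only as far as the stem-loop. In 53 members the row ended 4 to 8 bases past it. The row of Hist1h2be went on for 1861 bases past its stem-loop. In Hist1h2bc the first exon ended 9 bases after the stop codon, so that the stem-loop lay in an intron and a second exon followed. Hist2h2be reached 2192 bases past its stop codon. The GENCODE vM1 annotation of mm9 held a transcript that ended more than 500 bases past the stop codon for 6 of the 11 tested members (Hist1h1c, Hist1h1d, Hist1h2bc, Hist1h2be, Hist2h2be and Hist3h2a) and for 4 of the 48 others with a stop codon (Hist1h2ac, Hist1h2ai, Hist1h3d and Hist2h4). Tested members were those with the higher counts, so this is a description. Hist1h4h, at 93 bases, had no such long transcript.

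**Figure D1:**
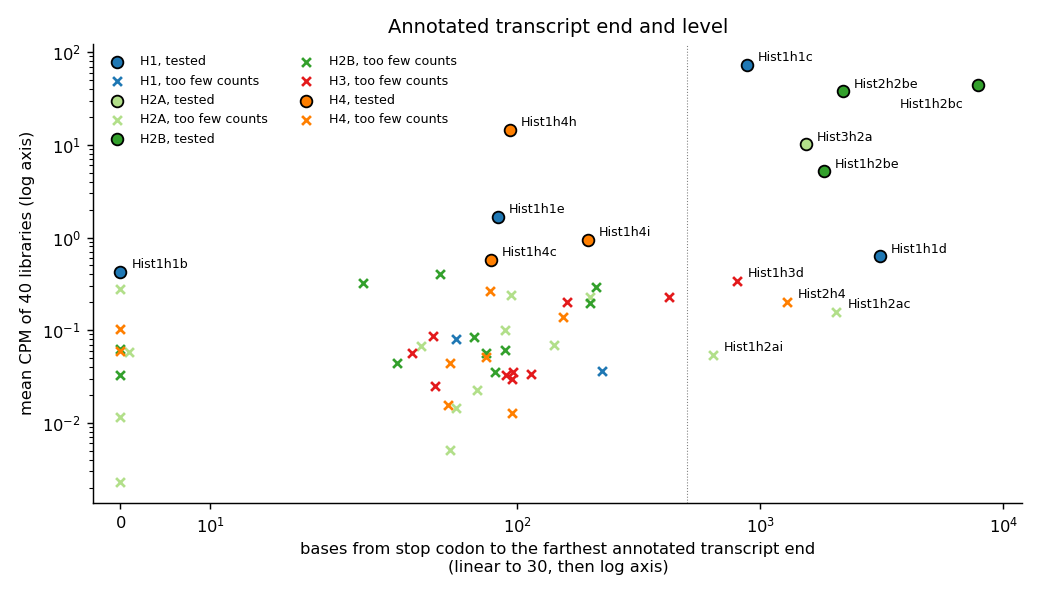
Distance in bases from the stop codon to the farthest annotated transcript end (linear to 30, then a log axis) against the mean CPM of 40 libraries (log axis) for each histone gene with a count and an annotated stop codon. Filled circles are the 11 tested members and crosses the others, coloured by histone class. The dotted line is at 500 bases, to the right of which lie 6 tested members, while Hist1h4h lies at 93.

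The 62 members were unevenly represented. The members lay on chromosomes 13 (50 genes), 3 (8 genes), 11 (3 genes) and 6 (1 gene). All members together had 65387 counts in the 40 libraries. Hist1h1c, which encodes the linker histone H1.2, had 24078 of these, Hist1h2bc had 15166 and Hist2h2be 13098, which together made 80.05% of the family. A level high enough for the test across all genes was reached by 11 members, which held 97.2% of the counts. The other 51 had 1814 counts together, with a median of 21 and at most 150 (Hist1h2bh), and 2 of them had no count in any library. None of the 11 H3 genes passed the filter, and the class had 374 counts. A member that passes such a filter through its high groups alone is bound to differ between groups, so a share of the tested members is not a share of the family. Hist1h1b, Hist1h1d and Hist1h4c reached the level of the filter, 1.105 CPM in at least 5 libraries, only when the HFD C-3BO libraries were counted. Hist1h1b also needed the chow C-3BO libraries, with 4 libraries at the level without them. Comparisons that hold the HFD C-3BO group are therefore given for these 3 as levels, without a test. Besides them and the pair, 6 members were tested there.

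**Figure D2:**
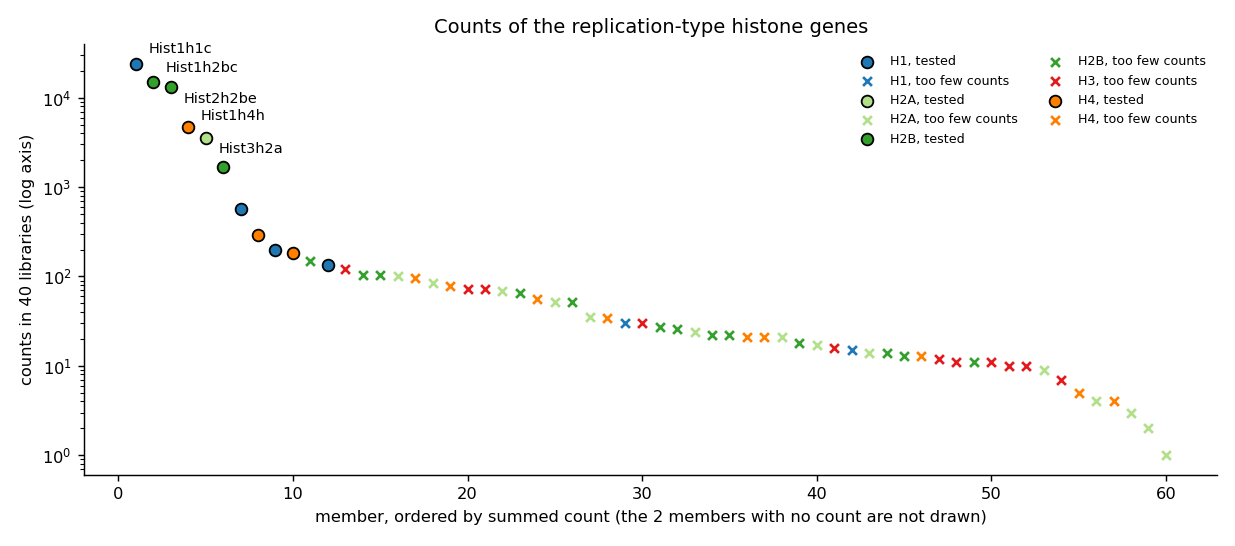
Counts summed over 40 libraries (log axis) for the 60 histone genes with a count, ordered from the highest to the lowest. Circles are the 11 tested genes and crosses those with too few counts, coloured by histone class. Hist1h1c stands first with 24078 counts, and the 3 genes on the left hold 80.05% of the family.

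Levels are given as CPM, the counts relative to the library size after scaling by TMM factors. Divided by the counted length in kilobases, the mean level over all libraries was 101 CPM per kb for Hist1h1c, 61.5 for Hist1h2bc, 33.3 for Hist1h4h, 19.97 for the H2A gene Hist3h2a and 14.4 for Hist2h2be. Hist1h2be was at 2.06 on this scale. Members share coding sequence, and the handling of reads that fit several of them is not given in the sources used here. The share of 50-base stretches that also occurred in another member was 50% in Hist1h4h, 50.8% in Hist1h2bc, 52.8% in Hist1h4i, 46.3% in Hist1h4c, 19.1% in Hist1h1c and 11.9% in Hist1h2be.

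Library totals ranged from 849126 counts, in HFD saline replicate 4, to 15260516, so that 3 counts, used as the limit of detection, were worth 0.206 to 3.01 CPM. The targeted gene Gpr3 was at 266 to 918 CPM in the 10 C-3BO libraries and at no more than 9.15 CPM in the other 30. Summed over the 12 brown adipocyte markers, every group was above 12950 CPM in each mouse. The 12 libraries with the lowest totals (all HFD saline, all HFD CL, and HFD C-3BO replicates 4 and 5) had 62.2 to 294 CPM of the liver gene Alb, against at most 1.62 in the other 28, and at least 10.0 CPM of summed epididymis markers, against at most 1.23 in the others. In the injected cohort this set coincided with the diet, so diet and library set cannot be told apart there. Fewer cells of a type and less RNA per cell cannot be told apart in bulk tissue.

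Hist1h4h encodes histone H4. In chow-fed controls it was at 19.2, 14.6, 11.9, 14.9 and 12.8 CPM, and in HFD-fed controls at 3.53, 5.42, 7.83, 9.76 and 8.22. In chow-fed C-3BO mice it was at 17.5, 16.2, 25.3, 12.1 and 12.2 CPM, and in HFD-fed C-3BO mice at 44.9, 44.6, 39.3, 28.5 and 41.4. The diet went with opposite differences in the genotypes: each control on HFD was below each control on chow, and each C-3BO mouse on HFD was above each C-3BO mouse on chow. The mean was 14.7 ± 2.82 CPM on chow and 6.95 ± 2.47 on HFD in controls (SD, n = 5), and 16.6 ± 5.41 on chow and 39.7 ± 6.68 on HFD in C-3BO mice. On chow the genotypes overlapped. There the fitted log2 fold change was 0.18, and -0.03 when scaled by library totals alone. On HFD they did not overlap, and the ratio of the means was 5.71.

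In the injected cohort, which was not compared with the C-3BO cohort by a test, the saline mice had Hist1h4h at 6.38, 3.79, 5.72, 5.78 and 4.85 CPM on chow and at 4.41, 4.09, 3.15, 2.01 and 7.46 on HFD, which overlap. The CL mice were at 8.06, 10.8, 7.85, 7.495 and 9.06 CPM on chow and at 17.99, 19.3, 24.7, 22.9 and 14.4 on HFD. Every CL mouse was above every saline mouse of its diet. The ratio of the means of CL to saline was 1.63 on chow and 4.70 on HFD.

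Hist1h2be encodes an H2B and was counted over 2506 bases, most of them past its stem-loop. It was at 3.80, 3.44, 4.03, 6.18 and 3.86 CPM in chow-fed controls and at 1.80, 2.31, 1.92, 3.10 and 1.67 in HFD-fed controls. C-3BO mice had 3.47, 5.56, 8.002, 6.75 and 3.87 CPM on chow and 13.2, 15.2, 13.2, 11.2 and 15.8 on HFD. Again the HFD-fed controls were all below, and the HFD-fed C-3BO mice all above, the chow-fed mice of their genotype. The ratio of C-3BO to control means was 1.30 on chow, where the mice overlapped, and 6.35 on HFD.

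Saline mice had 3.35, 2.78, 2.77, 5.17 and 1.62 CPM of Hist1h2be on chow and 0.964, 0.630, 1.70, 0 and 0.794 on HFD, the value of 0 coming from the shallowest library, where 3 counts are worth 3.01 CPM. CL mice had 2.85, 5.10, 3.69, 4.11 and 3.02 CPM on chow and 9.92, 8.32, 8.14, 6.11 and 7.08 on HFD. On chow, CL and saline mice overlapped, with a ratio of means of 1.196. On HFD every CL mouse was above every saline mouse, with a ratio of 9.68 that rests on 30 counts in the saline group.

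**Figure D3:**
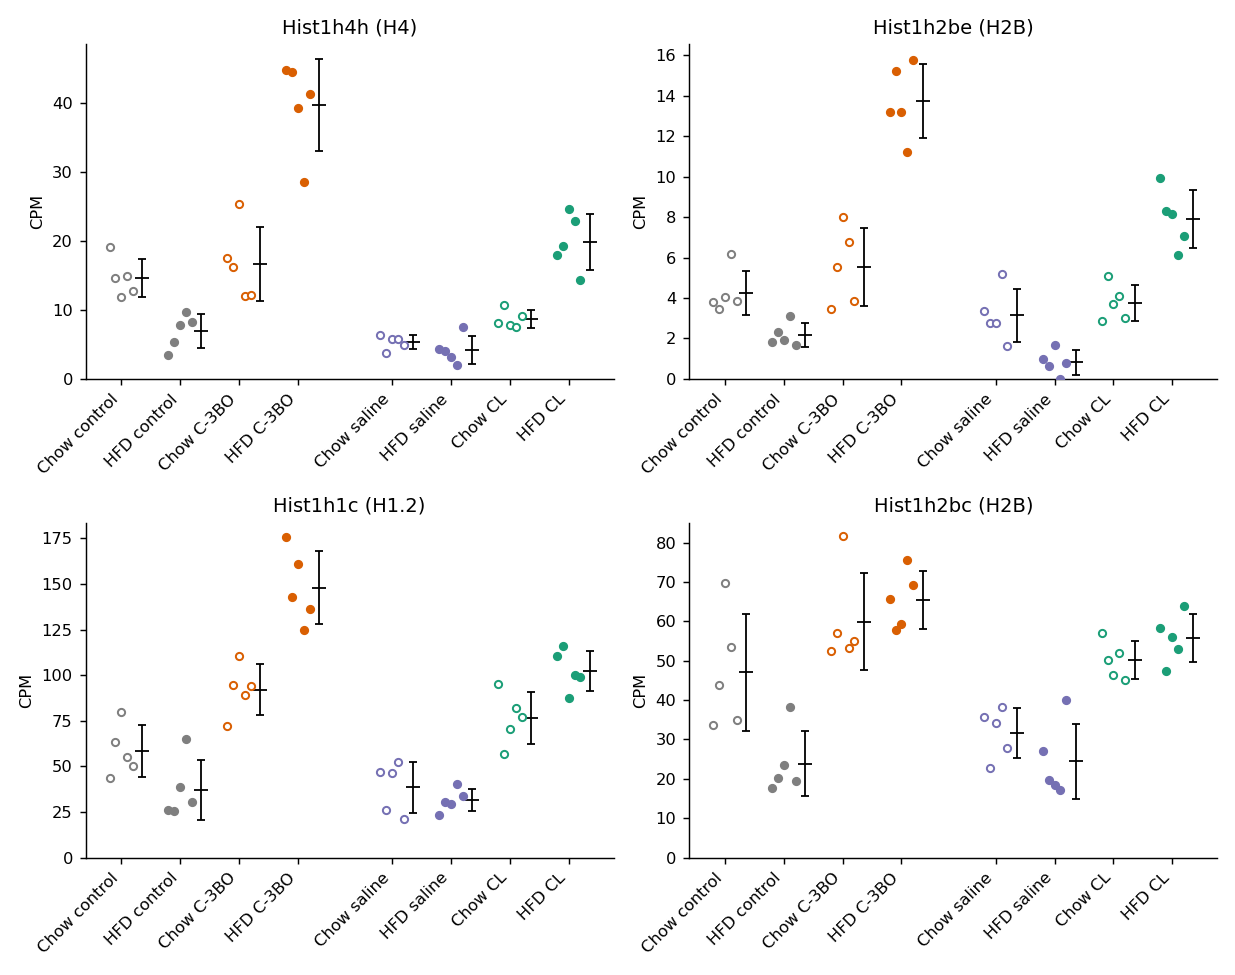
CPM of 4 histone genes in each of 40 mice, with 5 mice in each of 8 groups. Open symbols are chow and filled symbols HFD, colours mark control, C-3BO, saline and CL, and the black bars are the mean and 1 SD. For Hist1h4h the HFD C-3BO mice sit between 28.5 and 44.9 CPM and the HFD controls between 3.53 and 9.76.

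The comparison of C-3BO mice with control littermates asks what continuous Gs signaling in brown adipocytes does on each diet. On HFD, 4 of these 6 members (Hist1h1c, Hist1h1e, Hist1h4i and Hist1h2bc) were higher in C-3BO mice by an adjusted p below 0.05 and a log2 fold change above 1, where 4.34% of all tested genes were. None of the 6 was lower, where 3.1% of all tested genes were. The p-values come from a fit of all 40 libraries with edgeR's quasi-likelihood test, adjusted over 13277 genes. The median log2 fold change was 1.72 over the 6 members and -0.02 over all tested genes. On chow none of the 9 members besides the pair passed both thresholds by edgeR or DESeq2, where 2.37% of all genes were higher, and at an unadjusted p below 0.05 there were 3 (Hist1h1c, Hist2h2be and Hist1h4c). Of the 9, Hist1h1b had passed the filter only with the chow C-3BO libraries counted.

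The linker histone genes, whose products bind the DNA between nucleosomes, were led by Hist1h1c. On HFD it was at 26.1, 25.3, 38.9, 65.0 and 30.8 CPM in controls and at 176, 143, 161, 125 and 136 in C-3BO mice, which did not overlap. The log2 fold change was 1.99 (SE 0.21, adjusted p = 4.51e-09). On chow it was at 43.4, 63.2, 80.02, 55.3 and 50.4 CPM in controls and at 71.9, 94.7, 111, 89.3 and 94.1 in C-3BO mice. There the log2 fold change was 0.66 (SE 0.21, adjusted p = 0.0142) and did not pass the fold threshold.

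The other H1 genes were less abundant. Hist1h1e, which encodes H1.4, was at 0.216 to 0.961 CPM in HFD-fed controls and at 1.84 to 5.99 in HFD-fed C-3BO mice, which differed by 2.50 on the log2 scale (SE 0.47, adjusted p = 6.20e-05). Hist1h1d, which encodes H1.3, was at 0.0687 to 0.288 CPM in controls and at 1.43 to 2.66 in C-3BO mice. Hist1h1b, which encodes H1.5, was at 0 to 0.206 CPM in controls and at 0.408 to 1.83 in C-3BO mice. In Hist1h1e the groups did not overlap on HFD. Nor did they in Hist1h1d and Hist1h1b, but these passed the filter through the HFD C-3BO mice. Single controls had at most 14 counts of Hist1h1e, 4 of Hist1h1d and 3 of Hist1h1b, so these values rest on few reads.

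Of the H4 genes besides Hist1h4h, Hist1h4i was at 0.216, 0.178, 0.275, 0.222 and 0.834 CPM in HFD-fed controls and at 3.40, 1.69, 1.71, 2.85 and 3.48 in HFD-fed C-3BO mice. Its log2 fold change was 2.96 (SE 0.49, adjusted p = 1.01e-05). Hist1h4c was at 0.0720, 0.0889, 0.755, 0.222 and 0.238 CPM in controls and at 2.45, 3.39, 1.35, 2.04 and 1.64 in C-3BO mice. Hist1h4i did not overlap between the genotypes on HFD. Nor did Hist1h4c, but it passed the filter through the HFD C-3BO mice.

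The H2B genes differed among themselves. Hist1h2bc, with the spliced form, was at 17.8, 20.2, 23.5, 38.2 and 19.5 CPM in HFD-fed controls and at 65.7, 57.7, 59.2, 75.6 and 69.2 in HFD-fed C-3BO mice. The log2 fold change was 1.45 (SE 0.20, adjusted p = 4.43e-07). Hist2h2be was the tested member in which the search found no stem-loop. On HFD it was at 25.9, 27.4, 42.3, 42.9 and 31.3 CPM in controls and at 48.4, 52.0, 50.8, 55.0 and 40.3 in C-3BO mice, which overlapped. Its log2 fold change of 0.54 (SE 0.14, adjusted p = 0.00372) was under the fold threshold, as was that of the H2A gene Hist3h2a, 0.70 (SE 0.20, adjusted p = 0.00586). On chow Hist2h2be had a log2 fold change of 0.40 (SE 0.14, adjusted p = 0.0318).

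Of the 6 members tested in this comparison, 5 had every HFD-fed C-3BO mouse above every HFD-fed control, which 11.4% of all tested genes had, and Hist2h2be was the exception. HFD C-3BO replicates 4 and 5 belonged to the low-total libraries. In them the summed liver and epididymis markers reached 547 and 72.9 CPM. Over HFD-fed C-3BO mice against controls 14 of 14 tested liver markers and 4 of 4 tested epididymis markers were higher, where 4.34% of all tested genes were. With C-3BO replicates 1 to 3 alone, Hist1h1c had a log2 fold change of 2.10 (adjusted p = 3.73e-08) and Hist1h4i one of 2.77 (adjusted p = 0.000216).

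Whether the C-3BO effect differed between the diets was tested as an interaction, in which 1.36% of all genes were called in the direction of a larger effect on HFD. Of the 6 members tested with this group, Hist1h1c and Hist1h2bc passed. The effect on HFD exceeded that on chow by 1.33 on the log2 scale for Hist1h1c (SE 0.29, adjusted p = 0.00874) and by 1.102 for Hist1h2bc (SE 0.27, adjusted p = 0.0231). The call for Hist1h2bc was lost when chow control replicate 3 or 4, HFD control replicate 1 or 2 or HFD C-3BO replicate 4 was left out, with adjusted p = 0.0715, 0.0544, 0.0648, 0.0579 and 0.0589, and with C-3BO replicates 1 to 3 alone (adjusted p = 0.0990). The other 4 had larger fitted effects on HFD but did not pass.

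**Figure D4:**
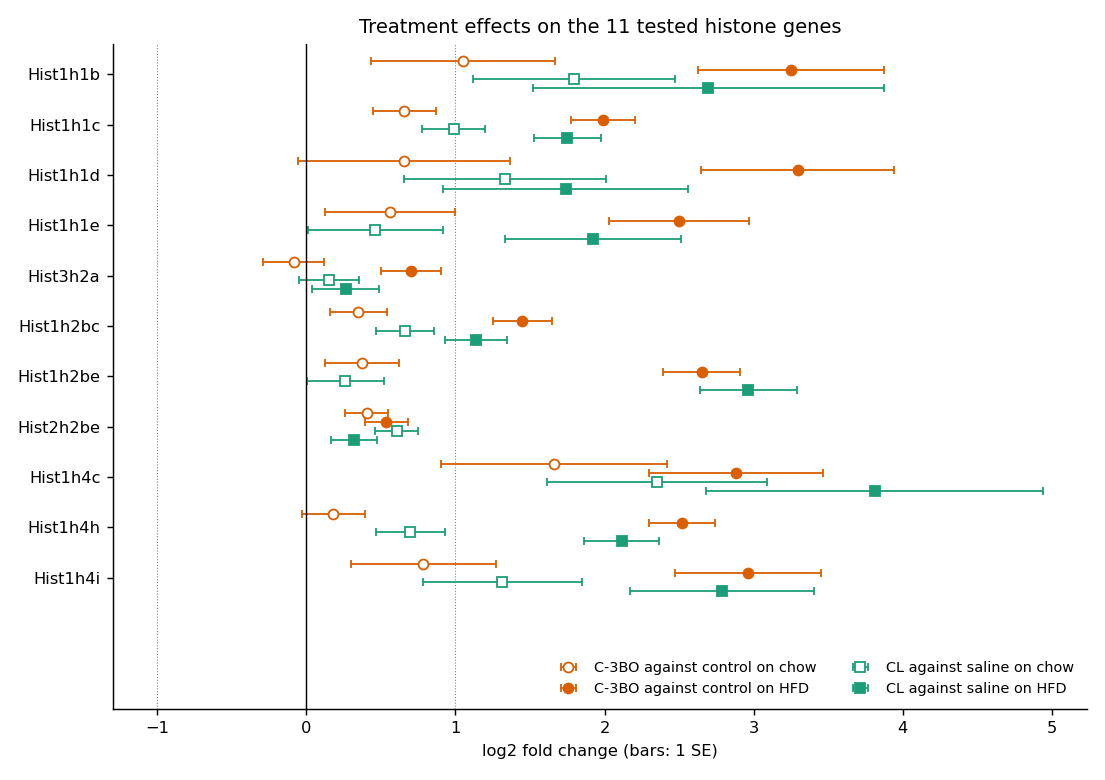
Log2 fold changes of the 11 tested histone genes for C-3BO against control (circles) and CL against saline (squares), on chow (open) and HFD (filled), with bars of 1 SE and dotted lines at -1 and 1. The C-3BO values on HFD of the 6 members tested there run from 0.54 for Hist2h2be to 2.96 for Hist1h4i. Hist1h4h and Hist1h2be, and the C-3BO values on HFD of Hist1h1b, Hist1h1d and Hist1h4c, are shown as a description.

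The comparison of CL with saline asks what repeated β3-adrenergic stimulation does on each diet, read on the day after the last injection. On HFD, 5 of the 9 members not chosen for their pattern were higher in CL mice and none was lower. Of all tested genes, 2.06% were higher and 2.06% lower. All 9 passed the filter on low counts without the HFD CL libraries. Hist1h1c was at 23.6, 30.2, 29.6, 40.1 and 34.0 CPM in saline mice and at 110, 116, 87.2, 99.8 and 98.8 in CL mice. Its log2 fold change was 1.75 (adjusted p = 3.80e-07). Hist1h2bc was at 17.0 to 40.01 CPM in saline mice and 47.3 to 63.8 in CL mice, a log2 fold change of 1.14 (adjusted p = 8.94e-05).

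The less abundant members rested on very few reads in this comparison. Hist1h4i had 7 counts in the 5 HFD saline libraries and 48 in the 5 HFD CL libraries (log2 fold change 2.79, adjusted p = 0.000948). Hist1h1e had 14 and 50 (log2 fold change 1.92, adjusted p = 0.0157), and its call was lost without HFD CL replicate 1 (adjusted p = 0.0683). Hist1h4c had 1 count in saline and 18 in CL mice (adjusted p = 0.0123), a ratio of 19.5 with a 95% counting interval of 3.09 to 815. Hist1h1b, with 1 and 8 counts, had a ratio of 8.69 (interval 1.16 to 386) and did not pass the test (adjusted p = 0.0922). Such intervals cover counting error only. In 4 of the 9 members every HFD CL mouse was above every HFD saline mouse, which held for 9.67% of all genes.

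On chow 1 of the 9 passed both thresholds for CL, Hist1h4c, where 1.12% of all genes were higher, with 6 counts in saline and 37 in CL mice (log2 fold change 2.35, adjusted p = 0.0254). That call was lost when any 1 of 5 libraries was left out (chow saline replicate 2, 3 or 5, chow CL replicate 2 or 4), with adjusted p up to 0.0797. Hist1h1c was at 46.7, 25.8, 46.6, 52.6 and 21.4 CPM in saline mice and at 95.4, 57.0, 70.5, 82.2 and 77.3 in CL mice, which did not overlap. Its log2 fold change of 0.99 (adjusted p = 0.00111) was just under the threshold. Hist2h2be (0.61, adjusted p = 0.00338) and Hist1h2bc (0.66, adjusted p = 0.0172) also passed the p-value alone. In 3 of the 9 members every chow CL mouse was above every chow saline mouse, which held for 5.88% of all genes. Over the same mice the 10 skeletal muscle markers had a median log2 fold change of -4.08 with CL, against -0.01 over all tested genes. Their sum was 10.4 to 2431 CPM in saline and 11.1 to 133 in CL mice. The part of muscle RNA in these differences was not tested. In the interaction of CL with diet none of the 9 was called by edgeR or DESeq2, where 0.0151% of all genes were called by edgeR with a larger effect on HFD, and at an unadjusted p below 0.05 it was Hist1h1c alone.

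The diet comparisons give the same levels from the other side, since they use the same libraries. In controls 1 of the 9 members not chosen for their pattern was lower on HFD, where 4.87% of all genes were, and none was higher. This was Hist1h1e, which was at 0.666 to 2.46 CPM on chow and at 0.216 to 0.961 on HFD, and fell by 1.42 on the log2 scale (SE 0.47, adjusted p = 0.0185). Without chow control replicate 3 or HFD control replicate 1 its adjusted p was 0.0532 or 0.0641. Hist1h2bc (log2 fold change -0.98, adjusted p = 0.000167) and Hist1h1c (-0.65, adjusted p = 0.0158) passed the p-value alone. Over the same mice the 10 skeletal muscle markers were all lower on HFD, their sum being 730 to 9487 CPM in chow-fed and 5.25 to 203 CPM in HFD-fed controls. The part of muscle RNA in these differences was not tested.

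In C-3BO mice the 10 muscle markers were again lower on HFD, their sum being 370 to 3608 CPM on chow and 5.63 to 70.7 on HFD. Their median log2 fold change was -6.03, against 0.03 over all tested genes. Among the 6 members tested with this group, 1 was higher on HFD, where 2.42% of all genes were. This was Hist1h4i, which rose by 1.28 on the log2 scale (adjusted p = 0.0301). The call was lost when any 1 of 6 libraries was left out (chow C-3BO replicate 2, 4 or 5, HFD C-3BO replicate 1, 4 or 5), with adjusted p from 0.0564 to 0.0914, and with HFD C-3BO replicates 1 to 3 alone its adjusted p was 0.136. The log2 fold changes of Hist1h1c (0.69, adjusted p = 0.0127) and Hist3h2a (0.85, adjusted p = 0.00235) were under the fold threshold. Hist1h1d, as a description, had 0, 0.347, 0.836, 0.775 and 0.430 CPM on chow and 2.45, 1.58, 2.20, 1.43 and 2.66 on HFD.

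In saline mice and in CL mice none of the 9 members not chosen for their pattern passed both thresholds for the diet, by edgeR or by DESeq2. At an unadjusted p below 0.05 there was 1 in saline mice (Hist1h1e) and there were 2 in CL mice (Hist1h4i and Hist1h1c). Of all genes, 1.45% were lower and 2.17% higher on HFD in saline mice, and 3.13% were higher in CL mice.

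Summed over all 62 members, controls had 173 ± 26.8 CPM on chow and 119 ± 35.3 on HFD (SD, n = 5), and C-3BO mice had 234 ± 27.7 and 352 ± 22.9. Saline mice had 125 ± 26.6 CPM on chow and 105 ± 17.8 on HFD, and CL mice 206 ± 17.6 and 246 ± 13.7. The lowest HFD C-3BO mouse, at 324 CPM, was above all other mice in the sum. This sum includes Hist1h4h and Hist1h2be, for which the family was picked, and was not taken without them. Their means were 39.7 and 13.7 CPM in HFD-fed C-3BO mice and 6.95 and 2.16 CPM in HFD-fed controls. The 51 members too low to test summed to 4.18 ± 0.92 CPM in HFD-fed controls and 8.13 ± 1.53 in HFD-fed C-3BO mice, the lowest of which, at 6.96, was above the highest control at 5.70. They summed to 2.98 ± 1.11 CPM in HFD saline and 5.97 ± 1.37 in HFD CL mice, which overlapped. The 11 H3 genes summed to 0.477 to 0.622 CPM in HFD-fed controls and 0.819 to 3.42 in HFD-fed C-3BO mice.

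Replication-type histone mRNA usually accompanies DNA synthesis, so genes of S phase and mitosis were read from the same fit. Of 30 such genes, 4 (where 3.1% of all tested genes were) were lower and none higher in HFD-fed C-3BO mice than in controls, while the histone genes called there were higher. These were Prc1, a spindle protein (log2 fold change -1.01, adjusted p = 0.00167), the E2F1 factor that drives entry into S phase (E2f1, -1.15, adjusted p = 0.00682), the proliferation marker Mki67 (-1.17, adjusted p = 0.0171) and the mitotic kinesin Kif11 (-1.17, adjusted p = 0.0218). The median over the 30 was -0.54, and 3 of the 30 had a positive fold change. On chow 12 were lower in C-3BO mice, where 4.81% of all genes were, and none higher, among them Kif11 (-2.46, adjusted p = 4.22e-05), and the median was -0.82. Between the diets, 5 of the 30 were higher on HFD in C-3BO mice, where 2.42% of all genes were. None was lower there, and the median was 0.59. In controls none was called for the diet by edgeR (10 at an unadjusted p below 0.05), with a median of 0.24. The interaction of C-3BO with diet had no call by edgeR (2 at an unadjusted p below 0.05) and a median of 0.36.

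In the injected cohort 4 of the 30 genes were higher in CL than in saline mice on HFD (Prc1, Cdc6, Top2a and Ccnb2), where 2.06% of all genes were, and none was lower, with a median of 0.63. On chow 1 of the 30 was higher with CL (Cdc6), where 1.12% of all genes were, and the median was 0.19. Between the diets, 17 of 30 were higher on HFD in CL mice, where 3.13% of all genes were, such as Cdc20, an activator of the anaphase-promoting complex (log2 fold change 2.18, adjusted p = 1.43e-05), and 9 of 30 were higher on HFD in saline mice, where 2.17% of all genes were and none of the 9 histone genes was. The 30 genes summed to 195 ± 39.5 CPM in HFD-fed controls, 151 ± 9.56 in HFD-fed C-3BO mice, 209 ± 45.1 in HFD saline and 296 ± 31.9 in HFD CL mice. Immune cells can divide in the tissue, and the summed immune markers were at 85.6 to 200 CPM in HFD-fed controls, 84.4 to 102 in HFD-fed C-3BO mice, 247 to 628 in HFD saline and 106 to 332 in HFD CL mice. Their part in these sums was not tested.

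**Figure D5:**
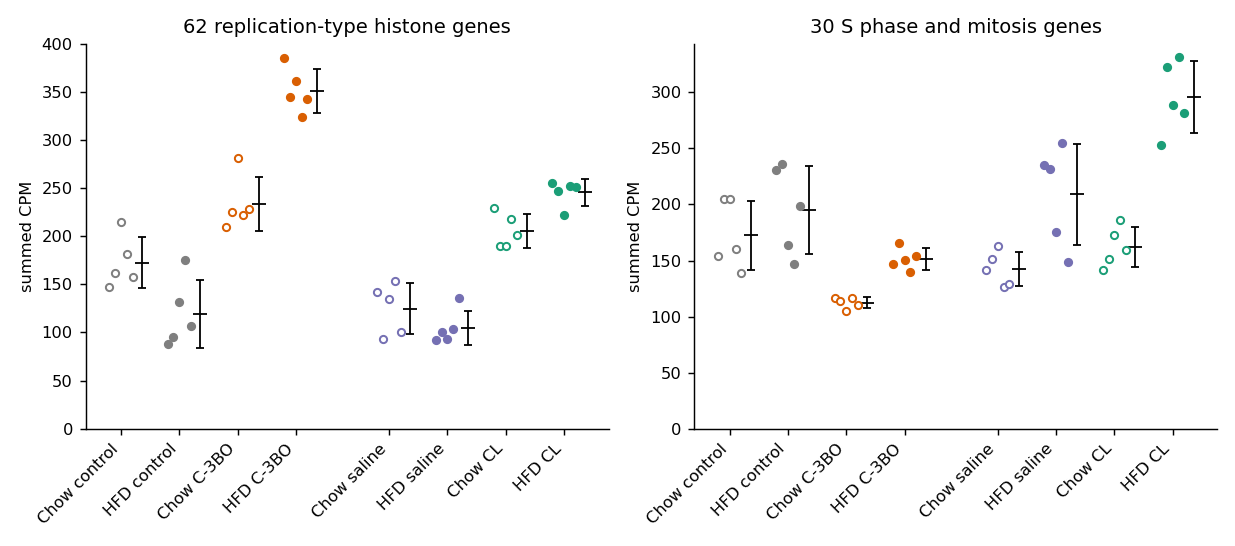
Summed CPM of the 62 histone genes (left) and of 30 S phase and mitosis genes (right) in each of 40 mice, with 5 mice per group. Open symbols are chow, filled symbols HFD, and the black bars are the mean and 1 SD. HFD C-3BO mice have 352 CPM of histone RNA against 119 in HFD controls, and 151 CPM of cell cycle RNA against 195. The histone sum includes Hist1h4h and Hist1h2be, for which the family was picked.

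Few genes that act on histone mRNA or on histone protein were called. Of 16 genes for the processing and decay of histone mRNA, none passed both thresholds in any of the 8 comparisons of groups by edgeR, in each of which 2 to 6 passed the adjusted p alone and 3 to 8 an unadjusted p below 0.05. None passed in the 2 interactions, each with 1 at an unadjusted p below 0.05. Slbp passed the p-value alone, with log2 fold changes of -0.70 for C-3BO on chow (adjusted p = 3.84e-06), -0.49 for C-3BO on HFD (adjusted p = 0.000341), -0.34 for CL on HFD (adjusted p = 0.0222) and -0.35 for HFD in CL mice (adjusted p = 0.0148). Of 13 histone chaperones and assembly factors, none was called by edgeR on HFD for C-3BO or CL (6 and 5 at an unadjusted p below 0.05), and 2 were lower in chow-fed C-3BO mice than in controls, where 4.81% of all genes were, Nasp (log2 fold change -1.09, adjusted p = 5.98e-08) and Chaf1b (-1.11, adjusted p = 0.0285). Most of the 11 replacement and variant histone genes make polyadenylated mRNA outside S phase. H1fx alone of the 11 was higher in HFD-fed C-3BO mice than in controls (1.80, adjusted p = 3.80e-05), where 4.34% of all tested genes were. Within C-3BO mice H1fx did not differ by diet (HFD against chow -0.03, adjusted p = 0.957). None of the 11 was called for CL on HFD by edgeR (4 at an unadjusted p below 0.05). H2afx was lower in chow-fed C-3BO mice (-1.08, adjusted p = 7.40e-05), where 4.81% of all genes were. In controls 1 of the 11 was lower on HFD, where 4.87% of all genes were.

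The promoters were read from RefSeq (GRCm38.p6), from 250 bases before to 50 after the start of transcription, for 56 members and 27025 genes in all, on both strands. TATAAA occurred in 58.9% of the members and 15.7% of all promoters, and CCAAT in 85.7% and 41.1%. The octamer ATTTGCAT occurred in 25.0% of the members and 1.97% of all promoters. TGACGTCA, the palindromic cAMP response element, occurred in 4 members (Hist1h4h, Hist1h2ag, Hist1h4a and Hist1h2bj), or 7.14%, against 2.03% of all promoters. Hist1h2ag and Hist1h2bj are neighbours that run in opposite directions, so their windows can overlap and a match can count for both. The first letters of this element, TGACG, which overlap it, occurred in 44.6% of the members and 23.0% of all promoters. These matches describe letters and not bound factors.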

How the data were processed

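RNA sequencing was done on BAT of 40 mice. The authors selected poly(A) RNA, made TruSeq libraries, aligned reads to mm9 with STAR and used HOMER tag directories and iRNA-seq to count them on RefSeq exons. The deposited values are raw counts per gene and mouse; versions, read length, strand setting and the handling of reads with several matches are not given in the sources used here. Groups came from the sample labels.

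Genes were kept with filterByExpr of edgeR 4.0.16 (R 4.3.3, minimum count 10), which left 13277 of 20295. TMM factors scaled library sizes, and the quasi-likelihood test used 1 mean for each of 8 groups over all 40 libraries. The p-values were adjusted over all tested genes by Benjamini and Hochberg. Calls needed an adjusted p under 0.05 and a log2 fold change past 1 or -1, interactions the p alone. The fit was checked on simulated data with 200 changed genes. Library totals of 849126 to 15260516 counts limit precision at low levels. Intervals cover counting error only.

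Members, gene lists and tests were chosen with earlier results of these data known. Named genes were Hist1h4h and Hist1h2be, every other called member, the 5 members highest per kb, and at most 4 genes of each companion list per comparison, called ones first by adjusted p. Hist1h2bh and the members named for annotated ends or promoter letters were chosen after their values were seen. DESeq2 1.42.0, other normalizations, filters, a replicate block and left-out libraries served as alternatives. Companion lists covered replacement histones, histone mRNA processing, chaperones, S phase and mitosis, and markers of brown adipocytes, liver, epididymis, skeletal muscle, immune, and endothelial and stromal cells. The endothelial and stromal markers had no call by edgeR in any comparison, and summed to 1965 to 2609 CPM in HFD-fed controls and 1682 to 1896 in HFD-fed C-3BO mice. By the adjusted p alone, 8 of the 10 passed for the diet in controls, with a median log2 fold change of 0.75. In the other comparisons of groups 0 to 5 did, among them 4 for C-3BO on HFD. A list of 17 RNAs that lack a poly(A) tail, meant as a check of the poly(A) selection, could not be used and was not analysed here, so the selection was not checked. RefSeq and GENCODE vM1 gave sequences and transcript ends, matched by symbol or identifier.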

Additional observations from a re-analysis of the deposited data

Results flagged for a closer look

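Over the 11 tested members and 8 groups, 88 sets of 5 mice were examined for a mouse far from the rest, and 7 were found, where chance gives about 1 in 20. Hist1h2bc stood out high in HFD control replicate 4, at 38.2 CPM against 17.8 to 23.5 in the other 4 mice, and in chow C-3BO replicate 3, at 81.7 CPM against 52.4 to 56.9. Hist1h2be was high in chow control replicate 4, at 6.18 CPM against 3.44 to 4.03. Hist1h4i was high in HFD control replicate 5, at 0.834 CPM against 0.178 to 0.275, and Hist1h4c in HFD control replicate 3, at 0.755 CPM against 0.0720 to 0.238. HFD saline replicate 3 had 0.121 CPM of both Hist1h1b and Hist1h4c, which is 1 count each, against 0 in the other 4 mice.

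The C-3BO effect differed between the diets for Hist1h1c, by 1.33 on the log2 scale, and for Hist1h2bc, by 1.102, in the test of the interaction.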

How the results depend on the processing

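Of 19 calls of single members other than Hist1h4h and Hist1h2be, 14 held in every alternative that tested the member and with each library left out. Of 337 such fits, 24 lost the call and none reversed the direction. Alternatives that left a member untested were not counted as lost calls. For C-3BO on HFD the 19 include Hist1h1b, Hist1h1d and Hist1h4c, and for the diet in C-3BO mice Hist1h1d and Hist1h4c. These passed the filter through HFD C-3BO mice, so their calls are only a description. The counts that follow are over every tested member, with Hist1h4h, Hist1h2be and those that passed the filter through HFD C-3BO mice among them, and describe only how the count moves. Scaling by library totals alone moved the median of all genes by -0.20 to 0.18 on the log2 scale and left 1 member called for HFD against chow in controls, in place of 2. Without a filter on low counts, 8 members were called for HFD against chow in C-3BO mice (5 with it), 2 in saline mice (1), 3 for C-3BO against control on chow (0) and 16 on HFD (9). With at least 10 counts in every library, which left 4 members to test, 1 was called for the diet in controls (2 in the main analysis), 0 in C-3BO, saline and CL mice (5, 1 and 2), 2 for C-3BO on HFD (9), 0 and 2 for CL on chow and HFD (1 and 7), and 2 and 0 in the interactions of C-3BO and CL with diet (4 and 1). By the adjusted p alone, 5 were called for the diet in controls, 2 for C-3BO on chow and 5 for CL on chow. Fits of the compared libraries alone, in which fewer members could be tested (7 and 6), called 0 for CL in chow-fed and 4 in HFD-fed mice. DESeq2 called 2 members in the interaction of CL with diet (edgeR 1). The cause of these moves was not tested, except where fewer members were left to test.

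Leaving out 1 library gave 0 to 4 calls for the diet in controls (0 without HFD control replicate 1, 1 without chow control replicate 3, 4 without chow control replicate 2 or 5 or HFD control replicate 4), 1 to 2 in saline mice (2 without chow saline replicate 2), 1 to 3 in CL mice (1 without chow CL replicate 1 or HFD CL replicate 1), 0 to 1 for C-3BO on chow (1 without chow control replicate 3) and 0 to 2 for CL on chow (0 without chow saline replicate 2 or 5, and 2 without chow saline replicate 1 or 4 or chow CL replicate 3 or 5). It gave 9 for C-3BO on HFD throughout, 6 to 7 for CL on HFD and 4 to 5 for the diet in C-3BO mice. Same-numbered mice did not deviate together (mean correlation of their deviations -0.14 to 0.17, none of the comparisons with all 5 over 0.1), and the replicate block changed the count for CL on chow alone, to 2. Depth limits members under a few CPM, of which single libraries held fewer than 10 counts.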

Other observations

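The histone classes were summed as a further description. On HFD the 12 H4 genes summed to 8.504 ± 3.07 CPM in controls and 45.5 ± 7.36 in C-3BO mice (SD, n = 5), and to 4.84 ± 2.27 in saline and 22.99 ± 3.94 in CL mice. The 6 H1 genes summed to 38.3 ± 16.5 and 155 ± 21.1 CPM in HFD-fed control and C-3BO mice, and to 32.1 ± 5.97 and 105 ± 11.6 in HFD saline and CL mice. The 17 H2B genes had 61.4 ± 16 and 131 ± 7.65 CPM, and 58.2 ± 15.7 and 105 ± 8.14. The 16 H2A genes had 10.6 ± 1.26 and 17.6 ± 4.25 CPM, and 9.16 ± 2.70 and 11.01 ± 2.99, and overlapped between CL and saline mice. Each of these sums is mostly 1 or a few genes: Hist1h4h for H4, Hist1h1c for H1 and Hist3h2a for H2A. The family was picked for Hist1h4h, in the H4 sum, and Hist1h2be, in the H2B sum, and the sums were not taken without them. Hist1h4h alone had means of 6.95 and 39.7 CPM in HFD-fed control and C-3BO mice, so the H4 sum mostly restates that gene.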
